A study of Mus musculus with 18 samples.

Results

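The genes described here are imprinted genes, which are transcribed from either the maternal or the paternal chromosome according to a methylation mark set in the germ line. The members were taken from a list of 36 gene symbols, and a gene entered if its symbol had a probe set in the deposited table of array values, with the probe set of highest mean standing for it. Of the 36 symbols, 31 had a probe set carrying that symbol alone, each with a single such probe set, out of 19938 genes measured in this way. Snrpn, Ube3a and Gnas were present only on probe sets that carry several symbols, and H19 and Kcnq1ot1 had no probe set in the probe table, so these 5 are not reported. No filter on low values was used, and all 31 measured members were tested.

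The study profiled RNA of 18 mouse medulloblastomas, tumours of the cerebellum, each on its own Affymetrix Gene ST 1.0 array. Ptch tumours formed the groups NG-Ptch (n = 4, replicates 1, 2, 4 and 5), GFD-Ptch (n = 2) and GFI-Ptch (n = 4). The 4 tumours labelled NG-Smo;Atoh1-CreER are written NG-Smo here, and the 4 labelled GFD-Smo;GFAP-cre are written GFD-Smo. The comparisons asked how tumour subtypes named NG, GFD and GFI differ, and the labels leave those letters unexplained. The labels give neither the Ptch or Smo allele nor the age of the animals, and for the Ptch tumours no Cre driver. Ptch is the receptor that restrains Smo, so all 5 groups are named for a gene of the Hedgehog pathway, and no group is normal cerebellum. Atoh1-CreER is active in granule neuron progenitors, and GFAP-cre is active in earlier neural stem cells and in astrocytes. Among Smo tumours each subtype has its own Cre driver, so the effects of these cannot be told apart. GFI-Ptch replicate 4 was labelled as progressed from a different tumour and grown in an NSG female host, and is called the transplanted tumour. Whether replicates are separate animals is not labelled, and p-values then measure only the spread between these samples. RNA came from whole tumour tissue, in which more cells of a type and more RNA per cell cannot be told apart.

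Imprinted genes lie mostly in clusters whose control regions keep DNA methylation on 1 parental copy, and the zinc-finger protein ZFP57 maintains that methylation by binding a short motif when its CpG is methylated. Many paternally expressed genes, such as Igf2, promote growth of the embryo, and many maternally expressed genes, such as Cdkn1c, Grb10 and Igf2r, restrain it. In brain the pattern differs for some genes, since Grb10 is transcribed from the paternal copy in neurons and from the maternal copy in most other tissues. Of the 31 members, 20 are usually paternally and 11 usually maternally expressed. The arrays read total transcript and do not separate the parental copies.

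The promoters of Ndn, Peg12, Zdbf2 and Grb10, members described below as higher in GFD-Smo than in NG-Smo, are shown because imprinting control acts through CpG methylation. RefSeq windows on GRCm38.p6, from 250 bases before to 50 bases after a transcription start, were matched by symbol for 27 of the 31 members, in 40 windows. Cdkn1c, Peg10, Sgce and Impact had no matched window. Each window is written 5′ to 3′ on the gene's own strand, and capitals mark CG dinucleotides.
Ndn, chr7:62348027-62348326, plus strand: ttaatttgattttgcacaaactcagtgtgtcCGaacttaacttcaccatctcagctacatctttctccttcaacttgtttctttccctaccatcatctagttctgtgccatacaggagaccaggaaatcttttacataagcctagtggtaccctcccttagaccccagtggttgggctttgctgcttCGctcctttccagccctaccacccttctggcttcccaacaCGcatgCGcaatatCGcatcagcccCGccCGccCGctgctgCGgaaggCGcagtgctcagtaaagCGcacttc
Peg12, chr7:62464461-62464760, minus strand: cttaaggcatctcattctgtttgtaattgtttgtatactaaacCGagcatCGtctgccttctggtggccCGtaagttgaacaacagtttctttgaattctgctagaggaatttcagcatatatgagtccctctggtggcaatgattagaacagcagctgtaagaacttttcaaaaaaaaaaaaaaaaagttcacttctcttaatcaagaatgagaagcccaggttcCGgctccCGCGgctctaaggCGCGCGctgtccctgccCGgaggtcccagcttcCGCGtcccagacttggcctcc
Zdbf2 window 1, chr1:63200108-63200407, plus strand: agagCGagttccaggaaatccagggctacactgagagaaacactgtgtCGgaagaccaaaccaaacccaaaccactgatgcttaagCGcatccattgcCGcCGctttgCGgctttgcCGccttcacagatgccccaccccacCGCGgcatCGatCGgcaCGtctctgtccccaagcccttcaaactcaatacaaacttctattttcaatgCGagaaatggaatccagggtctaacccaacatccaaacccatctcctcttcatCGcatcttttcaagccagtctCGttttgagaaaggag
Zdbf2 window 2, chr1:63273019-63273318, plus strand: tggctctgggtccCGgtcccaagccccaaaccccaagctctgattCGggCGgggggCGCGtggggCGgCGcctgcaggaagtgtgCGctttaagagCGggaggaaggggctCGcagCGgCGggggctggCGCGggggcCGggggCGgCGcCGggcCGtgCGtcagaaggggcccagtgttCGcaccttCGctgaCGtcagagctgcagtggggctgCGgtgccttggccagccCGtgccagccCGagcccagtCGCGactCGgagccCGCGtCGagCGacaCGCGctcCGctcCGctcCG
Grb10 window 1, chr11:12037371-12037670, minus strand: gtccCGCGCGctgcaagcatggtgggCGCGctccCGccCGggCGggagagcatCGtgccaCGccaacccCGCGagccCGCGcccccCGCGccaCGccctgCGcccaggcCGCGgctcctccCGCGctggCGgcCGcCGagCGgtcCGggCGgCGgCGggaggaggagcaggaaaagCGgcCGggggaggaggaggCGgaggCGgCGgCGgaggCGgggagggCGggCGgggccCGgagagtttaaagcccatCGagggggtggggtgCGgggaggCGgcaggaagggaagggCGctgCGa
Grb10 window 2, chr11:12027922-12028221, minus strand: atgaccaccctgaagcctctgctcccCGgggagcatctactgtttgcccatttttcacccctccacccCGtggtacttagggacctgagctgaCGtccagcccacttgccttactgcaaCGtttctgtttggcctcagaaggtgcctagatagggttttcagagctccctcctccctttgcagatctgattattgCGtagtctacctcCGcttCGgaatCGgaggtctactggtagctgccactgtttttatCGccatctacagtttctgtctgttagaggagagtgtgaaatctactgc
The 6 printed windows held from 9 CG dinucleotides in window 2 of Grb10 to 45 in window 1 of Grb10, with 11 in Ndn, 12 in Peg12, 15 in window 1 of Zdbf2 and 38 in window 2 of Zdbf2. The windows of Meg3 and Slc38a4, also called higher in GFD-Smo than in NG-Smo, were not printed. They held 13 and 1 CG dinucleotides for Meg3 and 5 in each window for Slc38a4. The median over the 40 member windows was 14.5, with a range of 1 to 48, against a median of 7 over 32851 windows of all genes. The ZFP57 motif TGCCGC, searched on both strands, occurred in 11 of the 40 member windows (27.5%), in 10 members, against 11.6% of all windows. Window 1 of Zdbf2 held 3 matches and window 1 of Grb10 held 1, whereas the windows of Ndn and Peg12 held 0. Of those not printed, window 1 of Meg3 held 1 match and the windows of Slc38a4 held 0. Windows of a gene can overlap, as do windows 2 and 3 of Mest, so the 40 are not independent. No methylation was measured, and a match is a description of the letters alone.

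Before the comparisons, some arrays stood apart. Across all genes replicates correlated least in GFI-Ptch, at 0.970 to 0.992, and most in GFD-Smo, at 0.995 to 0.998. The gender label went against the Y-linked transcripts on 3 arrays, namely the transplanted tumour, GFD-Smo replicate 2 and GFD-Smo replicate 3. Y-linked transcripts were present on both arrays of GFD-Ptch and on 0 of the 4 of NG-Ptch. Averaged over 10 markers, granule neuron progenitor genes lay between 11.25 and 11.88 on every array, lowest in the transplanted tumour. With no other tissue on the arrays, these values do not test the tissue label.

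Levels are given on the deposited log2 scale, on which 1 unit is a factor of 2. The mean of 20 of the 31 members over all 18 arrays lay above 7.80, the median of all values on the arrays. That of 11203 of the 19938 genes did so too. Nnat, a proteolipid of the developing brain, had the highest level of the members, at 13.17 ± 0.06 in GFD-Smo, 13.12 ± 0.40 in GFI-Ptch, 13.01 ± 0.07 in NG-Smo, 12.90 ± 0.05 in NG-Ptch and 12.68 ± 0.04 in GFD-Ptch (mean ± SD). Peg3, a zinc-finger transcription factor, ranged from 10.94 to 11.87, with a group mean of 11.30 to 11.47. Group means thus differed little for Peg3. Nnat was higher by 0.49 in GFD-Smo than in GFD-Ptch (SE 0.16, adjusted p 0.0531 by limma) and was uncalled. Asb4, a subunit of a ubiquitin ligase, was the sole member below the lower quartile of all values in every group, so its level is near the low end of the scale wherever it enters a count. Levels of different genes come from different probes and are not compared as amounts.

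**Figure D1:**
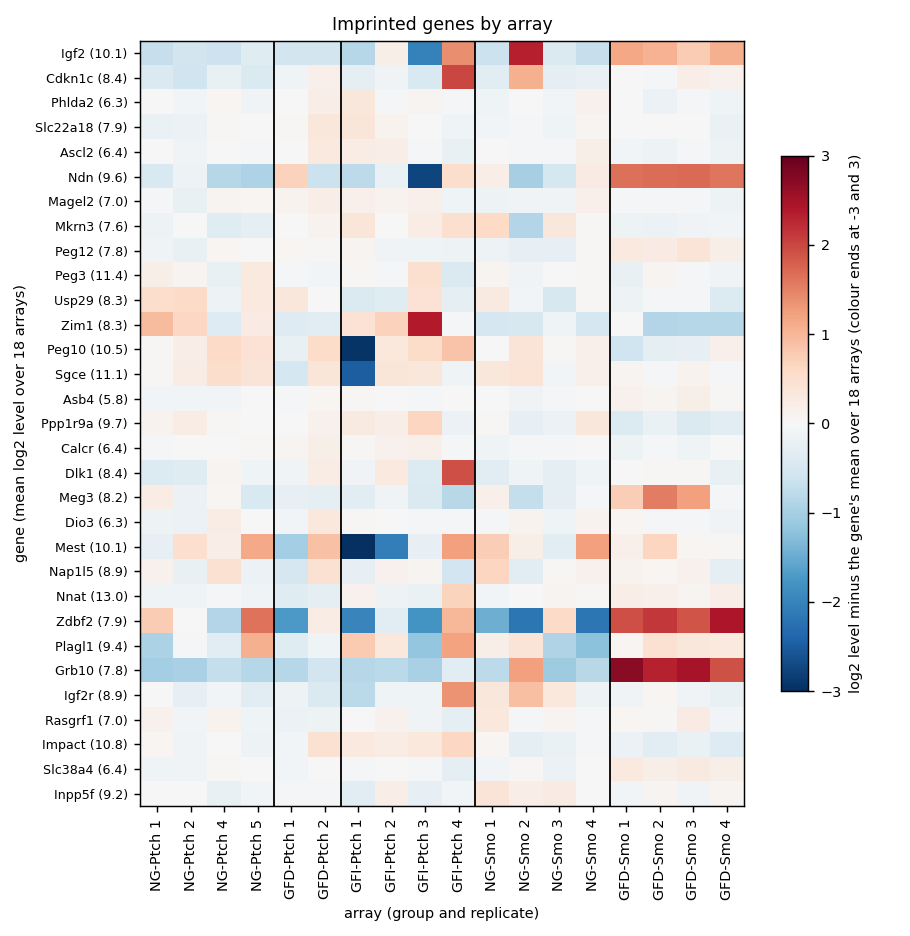
Level of each of the 31 imprinted genes on each of the 18 arrays, drawn as log2 level minus that gene's mean over all arrays (colour scale ending at -3 and 3), with genes grouped by chromosomal cluster and arrays by group, and with the mean log2 level in brackets. Grb10, Zdbf2 and Ndn are above their means on all 4 GFD-Smo arrays, and single arrays such as GFI-Ptch 1 for Peg10 and Sgce and NG-Smo 2 for Igf2 stand out elsewhere.

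The first comparison asked which imprinted genes differ between the GFD and NG subtypes of Smo tumours. Of the 31 members, 6 were higher in GFD-Smo and 0 were lower at an adjusted p under 0.05 by limma, where 5.31% of all genes were called, 2.81% as higher and 2.49% as lower. The 6 were Grb10, Zdbf2, Ndn, Meg3, Peg12 and Slc38a4, of which Grb10 and Meg3 are usually maternally and the other 4 paternally expressed. The members as a list did not shift, with a median difference of -0.02 against -0.01 over all genes. The arrays of the groups did not overlap for 6 members higher and 1 member lower in GFD-Smo, where 5.99% and 6.59% of all genes did so. The 6 higher without overlap were Grb10, Zdbf2, Ndn, Peg12, Slc38a4 and Asb4, the last uncalled, and the lower was Ascl2, also uncalled.

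Grb10 encodes an adaptor that binds the insulin and IGF1 receptors and restrains their signalling. Its level read 10.49, 10.10, 10.26 and 9.70 in GFD-Smo replicates 1 to 4, and 7.01, 9.03, 6.74 and 6.97 in NG-Smo replicates 1 to 4. In GFD-Smo it was higher by 2.70 (SE 0.37, adjusted p 0.000418 by limma), a 6.51-fold difference, and the groups did not overlap. NG-Smo replicate 2 stood above the other 3 NG-Smo arrays. Window 1 of Grb10, with the most CG dinucleotides of the printed sequences, belongs to this gene, as does window 2 with the fewest. Across the 10 Ptch tumours Grb10 lay between 6.78 and 7.48, below every GFD-Smo array. The group means were 10.14 ± 0.33 in GFD-Smo, 7.44 ± 1.07 in NG-Smo, 7.08 ± 0.19 in GFD-Ptch, 7.06 ± 0.29 in GFI-Ptch and 6.90 ± 0.13 in NG-Ptch (mean ± SD), and the last 4 differed by less than the SD within NG-Smo.

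Zdbf2, a zinc-finger gene with a role in growth after birth, had the largest difference of the members. Its level was 9.88, 10.06, 9.83 and 10.36 in GFD-Smo and 6.49, 5.78, 8.51 and 5.77 in NG-Smo, in replicate order. GFD-Smo was higher by 3.40 (SE 0.73, adjusted p 0.0119), a 10.5-fold difference, with no overlap. The GFD-Smo arrays lay close together, whereas NG-Smo replicate 3 lay apart from the other NG-Smo arrays. Zdbf2 also varied widely within the Ptch groups, from 7.07 to 9.58 in NG-Ptch, 6.23 to 8.18 in GFD-Ptch and 5.97 to 8.93 in GFI-Ptch, and each of these values was below the lowest GFD-Smo array.

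Ndn and Peg12 lie in the mouse counterpart of the Prader-Willi region on chromosome 7. Ndn encodes necdin, a MAGE-family protein that restrains proliferation of neural cells. Its level was 11.28, 11.30, 11.31 and 11.24 in GFD-Smo, and 9.83, 8.63, 9.10 and 9.88 in NG-Smo. The difference was 1.92 (SE 0.52, adjusted p 0.0426), or 3.78-fold, and the GFD-Smo arrays were nearly identical. Peg12, an intronless gene of the same region, read 8.04, 8.01, 8.14 and 7.92 in GFD-Smo against 7.60, 7.52, 7.51 and 7.80 in NG-Smo, a difference of 0.42 (SE 0.08, adjusted p 0.00435). The difference of Peg12 was small, and its arrays did not overlap. The other measured genes of that region did not pass the test, with a difference of -0.01 for Magel2, a MAGE-family regulator of protein sorting, and of -0.16 for Mkrn3, a ubiquitin ligase that holds back puberty.

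Meg3, a long non-coding RNA of the Dlk1-Dio3 domain on chromosome 12, read 8.95, 9.73, 9.44 and 8.17 in GFD-Smo and 8.36, 7.49, 7.91 and 8.17 in NG-Smo. It was higher in GFD-Smo by 1.09 (SE 0.28, adjusted p 0.0309), although GFD-Smo replicate 4 lay within the range of NG-Smo. Its protein-coding neighbours differed by 0.17 for Dlk1, a Notch-like membrane ligand, and by -0.048 for Dio3, which inactivates thyroid hormone, and neither passed the test. Slc38a4, an amino acid transporter, read 6.73, 6.61, 6.71 and 6.61 in GFD-Smo and 6.37, 6.47, 6.26 and 6.42 in NG-Smo, higher by 0.29 (SE 0.07, adjusted p 0.0183). Its levels lay near the lower quartile of all values, 6.28. Igf2, the insulin-like growth factor, was uncalled at 0.87 (SE 0.65, adjusted p 0.635), with 11.24, 11.12, 10.85 and 11.15 in GFD-Smo against 9.43, 12.41, 9.65 and 9.38 in NG-Smo. NG-Smo replicate 2 exceeded all GFD-Smo arrays for Igf2, and without it the difference was 1.60 (adjusted p 0.0944).

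Grb10, Zdbf2 and Peg12 were called under all 26 alternatives, with a highest adjusted p of 0.0130, 0.0362 and 0.0206. Ndn was called under 12 of 26 (adjusted p 0.00332 to 0.109), Meg3 under 19 of 26 (0.00302 to 0.110) and Slc38a4 under 21 of 25 (0.00121 to 0.0645). The count of members called was 3 without NG-Smo replicate 3 (4.59% of all genes), GFD-Smo replicate 1 (3.37%) or GFD-Smo replicate 3 (3.34%). Grb10, Zdbf2 and Peg12 were the 3 each time, and with all arrays 5.31% of all genes were called. Without NG-Smo replicate 2, Mkrn3 was called as lower in GFD-Smo, at 7.39 to 7.47 against 8.16, 7.90 and 7.61 in NG-Smo replicates 1, 3 and 4. In that fit Ndn and Meg3 were not called, and 5.36% of all genes were.

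**Figure D2:**
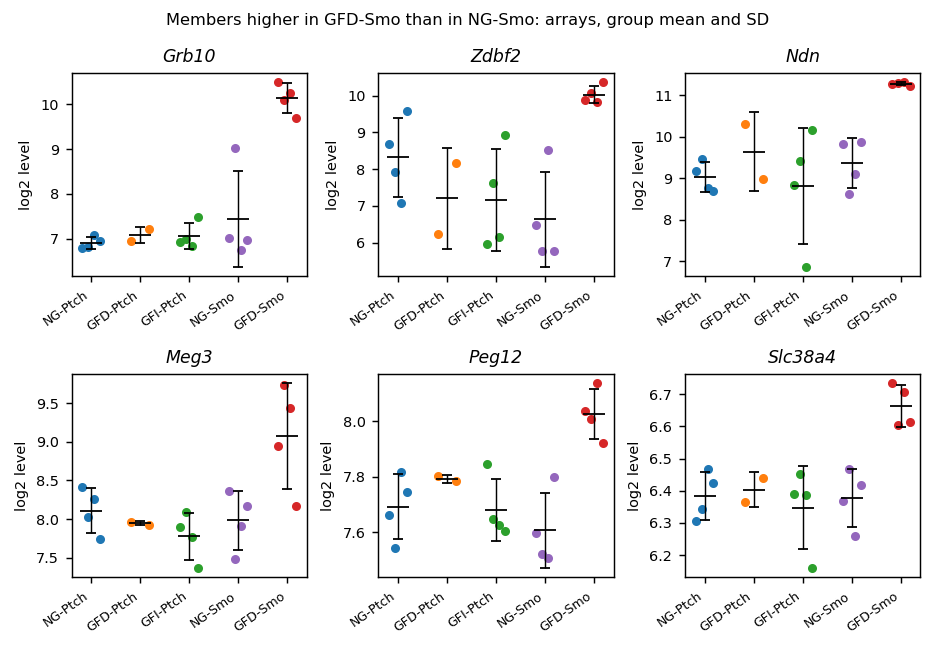
Log2 level of the 6 imprinted genes called higher in GFD-Smo than in NG-Smo, by group, with each point an array, the long bar the group mean and the whiskers 1 SD (n = 4 per group, n = 2 for GFD-Ptch, and axes that do not start at 0). For Grb10, Zdbf2, Ndn, Peg12 and Slc38a4 every GFD-Smo array lies above every other array, and for Meg3 GFD-Smo replicate 4 at 8.17 lies among the NG-Smo arrays.

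Markers of other cells moved with the same comparison. Of 12 astrocyte genes, 7 were higher and 0 lower in GFD-Smo, with a median difference of 1.19, and their mean level was 11.15 to 11.22 on the GFD-Smo arrays against 9.77 to 10.05 in NG-Smo. Gja1, the astrocyte gap junction protein, was higher by 2.32 (adjusted p 0.000646). Of 12 fibroblast, meningeal and pericyte genes 5 were higher, with a mean level of 8.69 to 8.94 against 8.28 to 8.56, and of 12 microglial genes 3 were lower. None of the 8 Purkinje cell and interneuron genes passed the test, though all 8 differences were above 0, with a median of 0.74. Their mean level in GFD-Smo was lowest, at 7.61, in replicate 4, which was also the GFD-Smo array lowest in Meg3. Differentiated neuron genes, with 0 of 12 called, were also lowest there, at 8.97 against 9.79 to 9.83 in GFD-Smo replicates 1 to 3. In endothelium 1 of 10 and in choroid plexus 1 of 6 were higher. No gene of granule neuron or oligodendrocyte progenitors was called, and over all genes 5.31% were. Skeletal muscle markers had 0 of 12 called and a mean level of 7.66 to 7.89 against 7.12 to 7.54, with Actc1, the cardiac actin, at 10.23, 10.45, 10.84 and 10.76 in GFD-Smo and 8.11, 9.99, 8.34 and 8.18 in NG-Smo. The NG-Smo array high in Actc1 was replicate 2, which was also the one high in Grb10, Igf2 and Cdkn1c. None of the 12 astrocyte markers lay below the lower quartile of all values in either group. The part of these cells in the differences of the imprinted genes was not tested.

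The comparison of GFD tumours between the models set GFD-Smo against GFD-Ptch. Of the 31 members 4 were higher and 2 lower in GFD-Smo, where 15.6% of all genes were called, 8.50% as higher and 7.10% as lower. The member median was 0.06 and that of all genes -0.06. Grb10 was higher by 3.06 (SE 0.45, adjusted p 0.000402), from 6.95 and 7.21 on the GFD-Ptch arrays. Zdbf2 was higher by 2.83 (SE 0.89, adjusted p 0.0433), from 6.23 and 8.18. Meg3 was higher by 1.12 (SE 0.34, adjusted p 0.0368), from 7.97 and 7.93. The GFD-Smo arrays are shared with the comparison within the Smo tumours. Slc38a4 was higher by 0.26 (adjusted p 0.0404). Impact, an inhibitor of the translational kinase GCN2, was lower by 0.46 (SE 0.14, adjusted p 0.0390), with 10.64, 10.46, 10.59 and 10.42 in GFD-Smo and 10.71 and 11.27 in GFD-Ptch. Calcr, the calcitonin receptor, differed by -0.21 (adjusted p 0.0471) at levels near the lower quartile. Ndn (1.63, adjusted p 0.0908) and Igf2 (1.56, adjusted p 0.179) did not pass the test, although their arrays did not overlap. Non-overlap was common there, in 10 members higher and 8 lower, where 23.4% and 33.7% of all genes did so.

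The count in that comparison depended on the arrays, since it was 1 without GFD-Ptch replicate 2, GFD-Smo replicate 2 or GFD-Smo replicate 3, 2 without GFD-Ptch replicate 1 or GFD-Smo replicate 1, and 3 without GFD-Smo replicate 4. Grb10 was called under all 26 alternatives. With the Y-linked level as a covariate 2 members were called, Grb10 and Meg3, where 11.9% of all genes were. Under median centring, which moved the median of all genes from -0.06 to -0.15, 9 members were called, 3 as higher and 6 as lower, where 34.2% of all genes were called, 6.95% as higher and 27.2% as lower. Astrocyte markers were higher in GFD-Smo for 11 of 12 genes here, with a median of 2.39 and a mean level of 8.83 and 8.93 on the GFD-Ptch arrays. Of 8 oligodendrocyte progenitor genes 4 were higher and 0 lower, with a median difference of 1.11, and their mean level was 8.86 and 9.02 on the GFD-Ptch arrays against 10.15 to 10.35 on the GFD-Smo arrays. Of 8 Purkinje cell and interneuron genes 2 were higher, with a median of 0.99, and of 12 microglial genes 5 were higher, with a median of 0.49. Genes of differentiated neurons were higher for 3 and lower for 2 of 12, and those of fibroblasts, meninges and pericytes were higher for 3 and lower for 1 of 12. In endothelium 1 of 10 and in choroid plexus 1 of 6 were higher, and 0 of 12 skeletal muscle genes were called. The part of these cells in the differences of the imprinted genes between GFD-Smo and GFD-Ptch was not tested.

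Whether the GFD minus NG difference itself differs between Smo and Ptch tumours was tested as an interaction. It passed for 2 of the 31 members, Zdbf2 and Grb10, where 3.81% of all genes were called. For Zdbf2 the difference was 3.40 in Smo and -1.12 in Ptch tumours, a gap of 4.51 (SE 1.15, adjusted p 0.0413). For Grb10 it was 2.70 in Smo and 0.18 in Ptch tumours, a gap of 2.52 (SE 0.58, adjusted p 0.0259). Meg3 (1.25, adjusted p 0.132) and Ndn (1.30, adjusted p 0.374) did not pass, so a difference between the models was not shown for them. No member passed without GFD-Smo replicate 1 (2.29% of all genes) or GFD-Smo replicate 3 (2.24%), nor with the Y-linked level as a covariate (0.797%). GFD-Ptch had 2 arrays in this test, and no calls are given for the fits that leave 1 of them. Over the arrays left out in turn, the gap ranged from 3.54 to 5.49 for Zdbf2 and from 2.29 to 3.06 for Grb10. Both ends of the range of Zdbf2 came from the fits with 1 GFD-Ptch array. Grb10 alone passed without NG-Ptch replicates 1 (2.29%), 2 (2.13%) or 5 (2.52%). It also passed alone without NG-Smo replicates 1 (3.32%), 2 (4.13%) or 4 (3.13%), or GFD-Smo replicate 2 (2.23%).

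**Figure D3:**
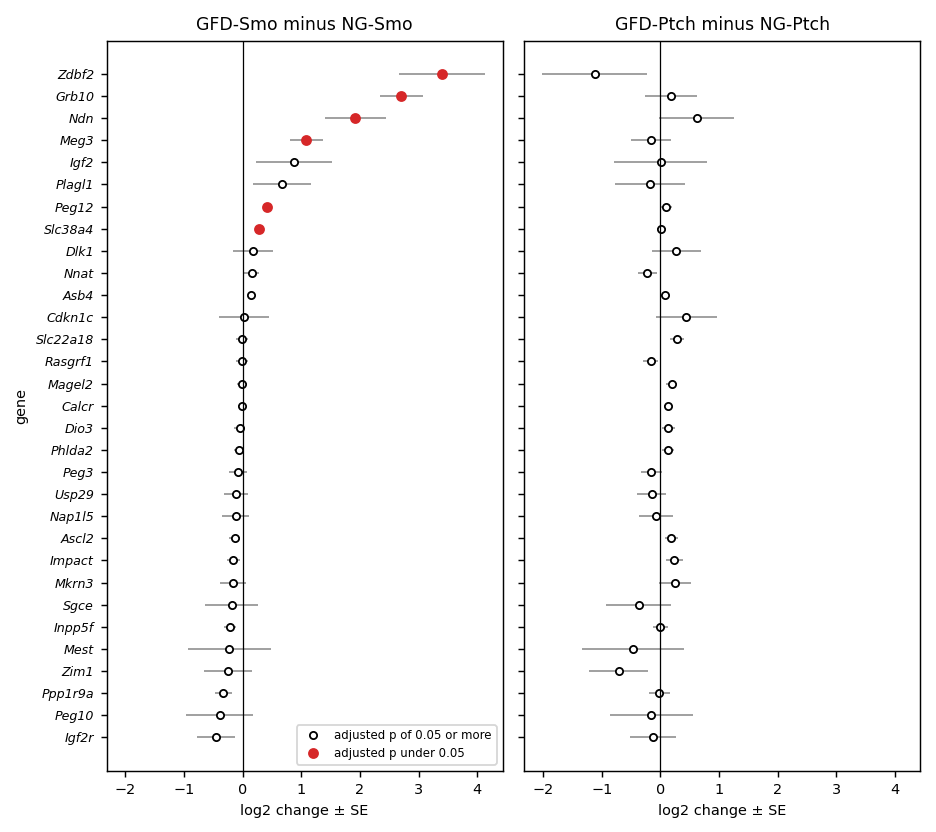
Log2 difference GFD minus NG of each of the 31 imprinted genes in Smo tumours (left) and in Ptch tumours (right), with bars of 1 SE and with filled red points for an adjusted p under 0.05 (limma, over all genes). Filled points occur in the Smo panel for 6 genes and in the Ptch panel for 0.

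Within the Ptch tumours none of the members passed the test by limma. In GFD-Ptch minus NG-Ptch 0 of 31 members were called, where 0.0100% of all genes were, and 1 had an unadjusted p under 0.05, where 16.9% of all genes did. The member median was 0.0035 and that of all genes 0.035. The largest differences in size were -1.12 for Zdbf2 (SE 0.89), -0.71 for Zim1 (SE 0.50), 0.62 for Ndn (SE 0.64) and -0.47 for Mest (SE 0.87). The SE was of the size of the difference in each, and for Ndn and Mest the sign turned without GFD-Ptch replicate 1. With 2 GFD-Ptch arrays, Mest read 9.11 and 11.03 and Zdbf2 read 6.23 and 8.18 on them, and neither difference was larger than the spread between arrays by the test. Mest, a putative hydrolase named for its expression in mesoderm, read 9.89, 10.65, 10.33 and 11.28 in NG-Ptch.

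In GFI-Ptch minus NG-Ptch 0 of 31 members were called, as were 0% of all genes, and 3 members had an unadjusted p under 0.05, where 8.53% of all genes did. The member median was 0.07 and that of all genes 0.02. The largest differences were -1.44 for Mest (SE 0.71, adjusted p 0.609), -1.15 for Zdbf2 (SE 0.73), -0.76 for Sgce (SE 0.45) and 0.71 for Cdkn1c (SE 0.42). Mest read 7.04, 8.07, 9.90 and 11.37 in GFI-Ptch, with the transplanted tumour highest and replicate 1 lowest. Without the transplanted tumour the difference of Mest was -2.20 and that of Cdkn1c was 0.13, and 0 members were called. In GFI-Ptch minus GFD-Ptch 0 members were called, where 0.00502% of all genes were, and 2 had an unadjusted p under 0.05, where 9.79% of all genes did. Zim1, a zinc-finger gene of the Peg3 domain, led with 1.22 (SE 0.50, adjusted p 0.446), followed by Mest (-0.97), Ndn (-0.83) and Plagl1 (0.54). Zim1 read 8.78, 9.03, 10.73 and 8.30 in GFI-Ptch and 7.95 and 8.03 in GFD-Ptch, without overlap.

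The NG tumours of the models did not differ in any member that passed the test. In NG-Smo minus NG-Ptch 0 of 31 members were called, where 1.04% of all genes were, and 2 had an unadjusted p under 0.05, where 10.6% of all genes did. The medians were 0.0080 over the members and 0.0060 over all genes. Zdbf2 differed by -1.68 (SE 0.73, adjusted p 0.410), Zim1 by -0.76 (SE 0.41), Igf2 by 0.69 (SE 0.65) and Grb10 by 0.53 (SE 0.37). The values of Igf2 and Grb10 rested on NG-Smo replicate 2, since without it they were -0.039 and 0.0026. A test of any difference among the 5 groups called 7 members, where 13.7% of all genes were called: the 6 genes higher in GFD-Smo and Impact. That count was 2 without GFD-Smo replicate 3 (8.66% of all genes), 3 without GFD-Smo replicate 1 (8.62%) and 4 without GFD-Smo replicate 2 (9.38%). It was 11 without the transplanted tumour, where 21.2% of all genes were called.

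The members varied more between tumours of a group than most genes did. The SD within groups, pooled over the 5 groups, was over 0.37 for the top 5% of all genes, and 13 of the 31 members (41.9%) were among them. The median SD of the members was 0.31 and that of all genes 0.13. The 13 were Zdbf2 (SD 1.12), Mest (1.10), Igf2 (0.996), Peg10 (0.89), Ndn (0.80), Plagl1 (0.75), Sgce (0.69), Cdkn1c (0.65), Zim1 (0.62), Grb10 (0.56), Dlk1 (0.52), Igf2r (0.50) and Meg3 (0.43). They included 8 of 20 paternally and 5 of 11 maternally expressed members. Among the 11203 genes whose mean lay above the median of all values, the members in the top 5% of SD were 12 of 20. Leaving out each array in turn gave 12 to 14, with 14 without the transplanted tumour. Nap1l5, at 0.36, was the member just under the threshold, and Peg3, Nnat and Impact, all abundant, had an SD of 0.22, 0.20 and 0.17.

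**Figure D4:**
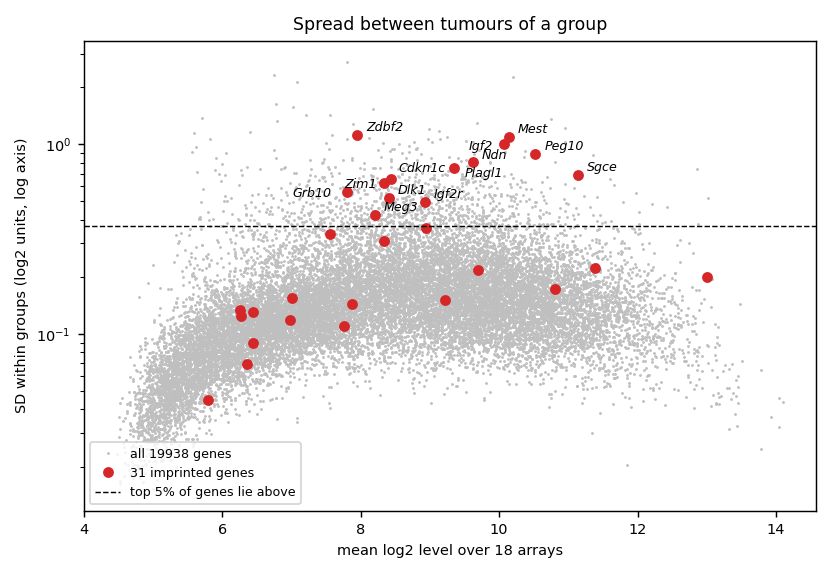
SD within groups, pooled over the 5 groups (log axis), against the mean log2 level over 18 arrays for 19938 genes (grey) and the 31 imprinted genes (red), with a dashed line above which the top 5% of genes lie. The 13 named imprinted genes lie above the line, from Meg3 at 0.43 to Zdbf2 at 1.12.

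This spread was unequal among the groups. Members whose arrays spanned 1 log2 unit or more numbered 11 of 31 in GFI-Ptch, where 6.64% of all genes did so, 9 in NG-Smo (4.59%), 4 in NG-Ptch (1.21%), 3 in GFD-Ptch (0.537%) and 1 in GFD-Smo (0.702%). The 4 in NG-Ptch were Zdbf2, Plagl1, Mest and Zim1. Plagl1, a zinc-finger transcription factor that regulates other imprinted genes, read 8.41, 9.32, 9.02 and 10.41 there. The 3 in GFD-Ptch were Zdbf2, Mest and Ndn, and the single gene in GFD-Smo was Meg3. Zdbf2, Mest and Plagl1 spanned 1 unit or more in GFI-Ptch, NG-Smo and NG-Ptch alike. Igf2 lay between 10.85 and 11.24 in GFD-Smo, but between 8.06 and 11.47 in GFI-Ptch and between 9.38 and 12.41 in NG-Smo.

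Single tumours carried much of this spread. In the transplanted tumour, GFI-Ptch replicate 4, 10 of 31 members lay 1 log2 unit or more from the mean of the other GFI-Ptch arrays, 9 above and 1 below, where 3.68% of all genes did so. Cdkn1c, an inhibitor of cyclin-dependent kinases, read 10.44 against 7.97 to 8.33 on the other GFI-Ptch arrays. Dlk1 read 10.34 against 7.99 to 8.70, and Igf2r, the receptor that clears Igf2, read 10.27 against 8.11 to 8.80. Igf2 read 11.47 against 8.06 to 10.25, and Mest 11.37 against 7.04 to 9.90. Of these 5 high genes, Igf2, Dlk1 and Mest are paternally and Cdkn1c and Igf2r maternally expressed. The skeletal muscle marker list was also high in it, with a mean level of 9.67 against 7.13 to 7.25 on the other GFI-Ptch arrays, and with Des at 11.13, Myh3 at 10.77 and Actc1 at 12.72. The part of muscle-type cells in these values was not tested.

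GFI-Ptch replicates 1 and 3 departed too, mostly in members that also departed in the transplanted tumour. In GFI-Ptch replicate 1, 5 members lay 1 log2 unit or more below the other arrays of the group and 0 above, where 1.08% of all genes departed that far. Peg10, a retrotransposon-derived gene, read 7.58 there against 10.85 to 11.38, and its neighbour Sgce, which encodes epsilon-sarcoglycan, read 8.66 against 11.02 to 11.50. Both values were the lowest of the 18 arrays for the gene. Peg10 and Sgce are adjacent on chromosome 6, and both are paternally expressed. Of the maternally expressed genes of that cluster, Ppp1r9a, a neuronal actin-binding protein, did not follow, at 9.97 against 9.52 to 10.34. Calcr read 6.39 against 6.31 to 6.52, near the lower quartile of all values, 6.28, where a fall could hardly be seen. Asb4 lay below that quartile in every group. Mest, on the same chromosome, read 7.04 in this tumour, also its lowest of 18.

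In GFI-Ptch replicate 3, 9 members lay 1 log2 unit or more from the mean of the other GFI-Ptch arrays, where 0.863% of all genes did. Of these, 4 lay above and 5 below that mean. Mest at 9.90, Peg10 at 11.07 and Sgce at 11.47, counted above, lay within the range of the other GFI-Ptch arrays. Zdbf2 at 6.15, counted below, did so too. Ndn read 6.86 against 8.83 to 10.15, the lowest of all arrays, and Igf2 read 8.06 against 9.23 to 11.47, again the lowest. Zim1 read 10.73, the highest of the 18 arrays. Its neighbours in the Peg3 domain departed less, since Peg3 itself read 11.87 against 10.94 to 11.42 and Usp29, a ubiquitin protease, 8.76 against 7.90 to 8.06. The other genes of the Prader-Willi region were not low in this tumour, with Magel2 at 7.14, Mkrn3 at 7.79 and Peg12 at 7.63. Magel2 ranged only from 6.76 to 7.18 over the 18 arrays. In NG-Smo replicate 2, 6 members departed, 4 above and 2 below, where 1.24% of all genes did. Zdbf2 at 5.78, counted below, lay within the range of the other NG-Smo arrays. Igf2 at 12.41, Grb10 at 9.03 and Cdkn1c at 9.50 were the highest of the NG-Smo arrays there, and Mkrn3 at 6.68 was the lowest.

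**Figure D5:**
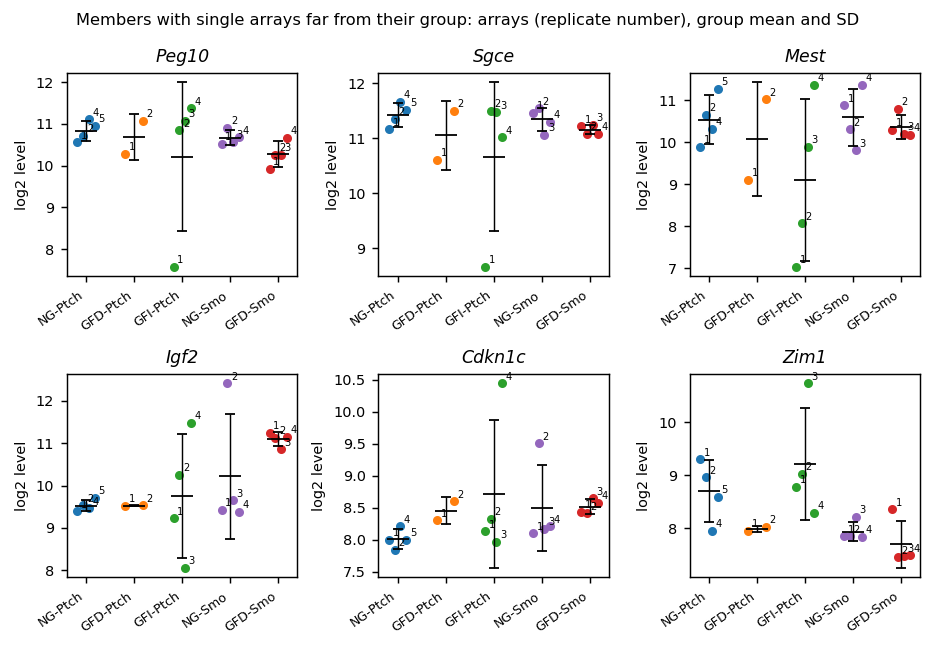
Log2 level of 6 imprinted genes by group, each point an array with its replicate number, the long bar the group mean and the whiskers 1 SD (n = 4 per group, n = 2 for GFD-Ptch, and axes that do not start at 0). GFI-Ptch 1 is lowest for Peg10, Sgce and Mest, NG-Smo 2 is highest for Igf2, GFI-Ptch 4 is highest for Cdkn1c and GFI-Ptch 3 is highest for Zim1.

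Viewed by chromosomal cluster, neighbouring members did not share 1 pattern. In the distal chromosome 7 cluster, Igf2 and Cdkn1c were among the most variable genes. Phlda2, a growth-restraining gene of placenta, ranged from 6.10 to 6.62 and Slc22a18, a membrane transporter, from 7.68 to 8.23. Phlda2, with a mean of 6.27, lay near the lower quartile of all values, 6.28, so its narrow range need not mean steady expression. In the Prader-Willi region 2 of 4 measured genes were called higher in GFD-Smo than in NG-Smo, and in the Dlk1-Dio3 domain 1 of 3. Over all genes 2.81% were called higher in that comparison and 5.31% in either direction. None of 5 in the Peg10 domain, 3 in the Peg3 domain and 5 on distal chromosome 7 was called in that comparison. Grb10, Zdbf2 and Slc38a4 came from the 11 single loci. Of the maternally expressed members 2 of 11 were called, and of the paternally expressed 4 of 20. Other members kept to narrow ranges over the 18 arrays. They were Ascl2, a transcription factor of placenta and gut stem cells (6.23 to 6.73), and Dio3 (6.09 to 6.57). Rasgrf1, an exchange factor for Ras (6.72 to 7.33), and Inpp5f, a phosphoinositide phosphatase (8.90 to 9.59), did so too. The same limit holds for Ascl2 and Dio3, whose means of 6.44 and 6.26 lay near the lower quartile. Nap1l5, of the nucleosome assembly protein family, ranged more widely, from 8.36 to 9.58.

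Further imprinted genes outside the members did not shift as a list. Of 42 such genes 35 were measured, and in GFD-Smo minus NG-Smo 1 was higher and 1 lower, with a median of -0.01. In that comparison 5.31% of all genes were called. Pon2, a lactonase of the Peg10 neighbourhood, was higher by 0.73 (SE 0.15, adjusted p 0.0103), and Dlx5, a homeobox gene near it, differed by -0.46 (SE 0.12, adjusted p 0.0416). In GFD-Smo minus GFD-Ptch 4 of the 35 were higher and 3 lower, where 15.6% of all genes were called. Among those called by limma were Gatm (1.76, adjusted p 0.00125), an enzyme of creatine synthesis, and Kcnk9 (-1.96, adjusted p 0.00229), a potassium channel. None was called within the Ptch tumours.

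All 16 listed regulators of imprinting were measured. In GFD-Smo minus NG-Smo, Tet2, which oxidises methylcytosine, was higher by 0.43 (SE 0.10, adjusted p 0.0153), and Dnmt1, the maintenance methyltransferase, differed by -0.29 (SE 0.08, adjusted p 0.0357). The other 14 did not pass, where 5.31% of all genes were called, and the list's median was -0.13. Uhrf1, the partner of Dnmt1, differed by -0.32 (adjusted p 0.103). In GFD-Smo minus GFD-Ptch, Dnmt1 differed by -0.34 (SE 0.09, adjusted p 0.0242) and was the sole regulator called, where 15.6% of all genes were. Within the Ptch tumours 0 of 16 were called.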

How the data were processed

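RNA of 18 tumours had been hybridized, and the authors deposited log2 values of 35556 probe sets in 1 table. The submitters' processing notes name Partek 6.6, and background correction, scaling and summarising of probes are not given in the sources used here. The array medians of the deposited log2 values lay between 7.736 and 7.868, and no value was changed. The number of arrays limits the precision. A probe table named 23410 probe sets, 21789 of them with 1 symbol, 1621 with several, while 12146 probe sets were not listed. Where a gene had several, the probe set with the highest mean was taken, which left 19938 genes.

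All 18 arrays were fitted with limma 3.58.1 in R 4.3.3 (5 group means, moderated two-sided tests, Benjamini-Hochberg over 19938 genes, called at an adjusted p under 0.05), and the fit was tested on simulated data. Python 3.11.15 made the summaries. The members, the other gene lists, the marker lists and the alternatives were chosen with earlier results of these data known. Values are given for called members and, where fewer than 4 were called, for the largest differences up to 4. The alternatives were quantile normalization, median centring, a filter on dim genes, a replicate block, only the groups compared, the Y-linked level as a covariate, array weights, the mean of all probe sets and each array left out. Replicate numbers did not pair the samples, since 4 of 29 same-number pairs correlated above 0.1 (r -0.31 to 0.19). Promoter windows came from RefSeq on GRCm38.p6. The files gave no coordinates.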

Additional observations from a re-analysis of the deposited data

Results flagged for a closer look

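In groups of 4 arrays, an array was singled out where its gap to the nearest other array took a larger part of the group's range than Dixon's 95% critical value allows. This held for 13 of 124 combinations of a member and a group (10.5%). Over all genes the share was 5.89% to 8.14% by group, and chance gives about 1 in 20. In GFI-Ptch the values were Cdkn1c at 10.44 in replicate 4, the transplanted tumour, and Peg10 at 7.58 and Sgce at 8.66 in replicate 1. In NG-Smo they were Igf2 at 12.41, Cdkn1c at 9.50, Grb10 at 9.03 and Asb4 at 5.69 in replicate 2, Zim1 at 8.22 in replicate 3 and Magel2 at 7.12 in replicate 4. In GFD-Smo they were Slc22a18 at 7.68 and Magel2 at 6.82 in replicate 4 and Zim1 at 8.36 in replicate 1. In NG-Ptch the single case was Asb4 at 5.78 in replicate 5. NG-Smo replicate 2 thus held 4 of the 6 cases in its group.

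The GFD minus NG difference was larger in Smo than in Ptch tumours by 4.51 for Zdbf2 (adjusted p 0.0413 by limma) and by 2.52 for Grb10 (adjusted p 0.0259) in the interaction test, in which GFD-Ptch had 2 arrays and the other groups 4 each.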

How the results depend on the processing

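The counts of 0 members in the 3 Ptch comparisons and in NG-Smo minus NG-Ptch stayed at 0 under all alternatives run. With the replicate block, in which same-numbered arrays share a term, 3 members were called in GFD-Smo minus NG-Smo (4.06% of all genes), 2 in GFD-Smo minus GFD-Ptch (11.1%), 0 in the interaction (2.09%) and 4 in the test over 5 groups (9.20%). With the Y-linked level as a covariate the counts were 2 in GFD-Smo minus GFD-Ptch (11.9%) and 0 in the interaction (0.797%). Array weights gave 11 members in GFD-Smo minus GFD-Ptch (29.6%) and 17 in the test over 5 groups (39.7%), and fitting only the groups compared gave 14 in GFD-Smo minus GFD-Ptch (33.6%), so the higher counts came with more calls over all genes. Median centring lowered the share of calls over all genes that were higher from 53.0% to 41.0% in GFD-Smo minus NG-Smo and from 63.1% to 35.3% in the interaction, while 6 members higher and 0 lower, and 2 higher and 0 lower, were called there under it. Each array was left out in turn, and the fits that leave 1 GFD-Ptch array are not counted here. This gave 3 to 6 members in GFD-Smo minus NG-Smo (3.22% to 7.79% of all genes). It gave 1 to 8 in GFD-Smo minus GFD-Ptch (10.4% to 21.9%) and 0 to 3 in the interaction (2.13% to 6.44%). In the test over 5 groups it gave 2 to 11 (8.62% to 21.2%). The members in the top 5% of SD were 12 to 14, a check among the alternatives chosen after seeing the data. Quantile normalization gave 13 there. The filter on dim genes kept 11854 genes and 23 members. Signs turned for Ndn in GFD-Ptch minus NG-Ptch without GFD-Ptch replicate 1 (-0.048, with a range of -0.048 to 1.29 over the arrays left out), for Mest in the same comparison with the replicate block (0.14) and without GFD-Ptch replicate 1 (0.49, range -1.42 to 0.49), and for Igf2 in NG-Smo minus NG-Ptch without NG-Smo replicate 2 (-0.039, range -0.039 to 0.97). Of 829 values of single members under an alternative, 730 kept direction and side of the threshold, 94 lost the call, 1 gained it (Meg3 in the interaction without GFD-Smo replicate 4) and 4 turned. Many of the 829 belong to comparisons in which the member was uncalled before any alternative, and staying uncalled counts there as keeping side. Only a called member could lose its call, so the 94 all came from called members. The cause of the lost, gained and turned values was not tested. The files hold no measure of signal over background, so how near dim members such as Asb4 lie to it is not known.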
